A study of Mus musculus with 6 samples.

Results

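The genes described here encode 10 enzymes that remove superoxide and peroxides, namely Sod1, Sod2, Sod3, Cat, Gpx1, Gpx4, Prdx1, Prdx3, Prdx5 and Prdx6. They were chosen by gene name from the 34745 genes listed for mouse livers that had been exposed to a toxic dose of acetaminophen (APAP) or to saline. RNA from whole liver was sequenced, and the value used for each gene was the number of reads counted on it in each library.

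The labels describe 3 livers per group, all from mice of WT genotype. The mice were male C57BL/6J aged 8 to 10 weeks as stated in the methods, and both groups were fasted for 12 hours before the injection. The APAP group received 300 mg/kg intraperitoneally and was sampled 12 hours later. The saline group received saline instead. Counts of 2 APAP libraries (replicates 1 and 3) and of 3 libraries named WT1, WT2 and WT3 were analysed, and the WT libraries were taken as saline livers, since every other count column carries the name of APAP. APAP replicate 2 was not analysed here. No label states that the libraries of a group came from separate mice, so each p-value measures the spread between these libraries, which may be partly technical.

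Superoxide is formed by the respiratory chain and by oxidases, and superoxide dismutases convert it to hydrogen peroxide and oxygen. Hydrogen peroxide is then removed by catalase in peroxisomes, by glutathione peroxidases at the expense of glutathione, and by peroxiredoxins, most of which are returned to the reduced state by thioredoxin. In the liver these enzymes are known for their abundance in hepatocytes, and the reactive metabolite of APAP consumes glutathione and raises oxidant formation in hepatocyte mitochondria.

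The total count per library ranged from 13378445 to 15976339. Counts were divided by library sizes corrected for composition with edgeR's TMM factors and are given as CPM (counts per 1000000). The TMM factors were 1.27 and 1.09 in the APAP libraries and ranged from 0.783 to 0.980 in the saline libraries. The hepatocyte gene Alb, for albumin, took between 6.56% and 11.3% of the counts of every library. The sex-linked genes separated the groups completely. Xist, transcribed from the inactive X chromosome of females, was at 0.764 and 1.73 CPM with APAP and between 289.6 and 914 CPM with saline. The Y-linked genes Ddx3y, Eif2s3y, Uty and Kdm5d had at least 216 counts in each APAP library and at most 1 count in each saline library. The saline libraries therefore went against the male mice named in the methods, and for every gene the difference between APAP and saline cannot be told apart from a difference between male and female livers.

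All 10 enzyme genes passed the filter on low counts. Across the 13734 genes tested with edgeR's quasi-likelihood test, 993 (7.23%) had an adjusted p (Benjamini-Hochberg) under 0.05, 485 of them lower (3.53%) and 508 higher (3.7%) with APAP. Gpx1 was the only 1 of the 10 enzyme genes to pass, and it fell. A looser rule was also applied, namely an unadjusted P under 0.05 together with a change of 1.5-fold or more. By this rule 3 of the 10 were lower (Cat, Sod2 and Gpx1) and 0 were higher, against 23.5% of all genes tested, 11.2% lower and 12.3% higher. In 5 of the 10 (Cat, Sod1, Sod2, Gpx1 and Prdx5) both APAP libraries were below all 3 saline libraries, in 0 were they above, and in 5 the groups overlapped, whereas 20.1% of all genes had the APAP libraries below, 24% had them above and 44.1% had groups that did not overlap in either direction. The median log2 fold change of the 10 genes was −0.37, and that of all genes tested was 0.03. With library size alone in place of TMM these medians were 0.04 and 0.42. The overlap of the groups was read with TMM only. With library size alone 5 of the 10 genes, rather than 8, had a negative log2 fold change.

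**Figure D1:**
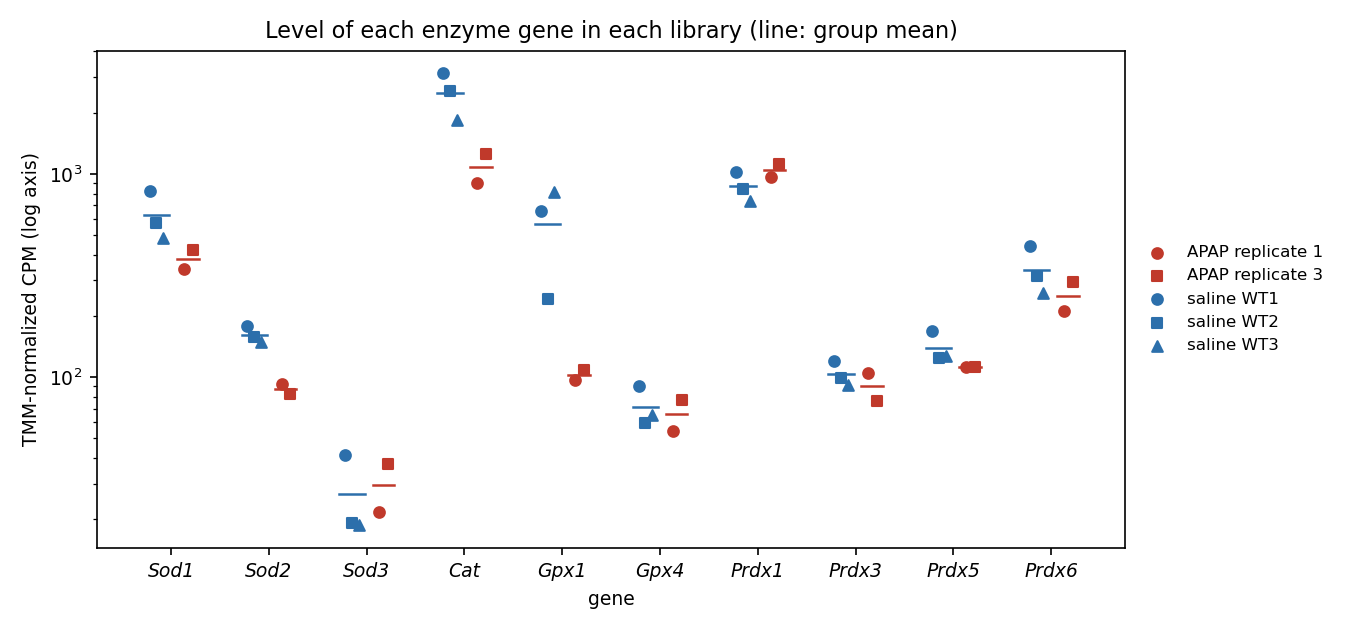
Level of the 10 enzyme genes in each library, in TMM-normalized CPM on a log axis, with 1 point per library (red, APAP replicates 1 and 3, blue, saline libraries WT1, WT2 and WT3) and a line at each group mean. Gpx1 and Cat stand lower in both APAP libraries than in every saline library, while the points of Sod3, Gpx4, Prdx1, Prdx3 and Prdx6 overlap between groups.

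The 3 superoxide dismutases act in different places and differed in their values. Sod2, the manganese enzyme of the mitochondrial matrix (chromosome 17, 13007839 to 13018119, plus strand, GRCm38, as are all coordinates here), was at 93.1 and 82.7 CPM after APAP versus 178, 158 and 148 CPM after saline (WT1, WT2 and WT3, in this order throughout). Both APAP libraries lay well below the lowest saline library, and the spread within each group was narrow. The mean of 87.9 ± 7.33 CPM (SD, n = 2) with APAP was 54.4% of the 161 ± 15.1 CPM (n = 3) after saline. The log2 fold change was −0.88 (SE 0.22, 95% interval −1.39 to −0.36, adjusted p = 0.0597 in edgeR's quasi-likelihood test). Sod2 was below 0.05 in edgeR's likelihood ratio test (adjusted p = 0.0387), in its exact test (0.0417) and in DESeq2 (0.000840), and in none of the other 10 alternative analyses. With library size alone its log2 fold change was −0.47 (adjusted p = 0.201), and leaving out APAP replicate 1 or 3 gave an adjusted p of 0.235 or 0.250.

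Sod1, the copper-zinc dismutase of the cytosol and the mitochondrial intermembrane space (chromosome 16, 90220742 to 90226322, plus strand), was at 338.5 and 424 CPM with APAP. In saline it was at 824, 570 and 483 CPM. The APAP libraries were again the lowest, but WT1 stood far above the other saline libraries, and the higher APAP value was close to the lowest saline value. The log2 fold change was −0.71 (SE 0.32, interval −1.47 to 0.04, adjusted p = 0.223). Part of the Sod1 count is uncertain, since 23.1% of the 50-base words of its longest coding transcript also occur in the pseudogene Gm8566, and Scaf4 overlaps it on the other strand. The strand setting of the counting is not given in the sources used here, so reads of such a partner cannot be told apart.

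Sod3, the secreted dismutase that binds to the extracellular matrix (chromosome 5, 52363791 to 52371418, plus strand), had the fewest counts of the 10 genes in every library, at 21.6 and 37.3 CPM after APAP versus 41.6, 19.2 and 18.7 CPM after saline. The groups overlapped, with WT1 the highest library and WT2 and WT3 the lowest. Its log2 fold change was 0.16 (SE 0.42, interval −0.84 to 1.15, adjusted p = 0.860) and turned negative when APAP replicate 3, WT2 or WT3 was left out.

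Cat encodes catalase, the heme enzyme of peroxisomes that splits hydrogen peroxide without a reducing partner (chromosome 2, 103453849 to 103485160, minus strand). It had the highest count of the 10 genes in all 3 saline libraries, at 3118 CPM in WT1, 2555 CPM in WT2 and 1831 CPM in WT3. In the APAP libraries it was at 896 and 1252 CPM. The groups did not overlap, although the saline libraries themselves spread widely. The mean of 1074 ± 252 CPM (n = 2) was 42.9% of the saline mean of 2501 ± 645 CPM (n = 3), with a log2 fold change of −1.22 (SE 0.37, interval −2.08 to −0.35) and an adjusted p of 0.0951. As with Sod2, this missed 0.05 in the quasi-likelihood test and was below it in the likelihood ratio test (0.0213), the exact test (0.0237) and DESeq2 (0.00210), but in none of the other 10 alternative analyses, where the adjusted p reached 0.390 without APAP replicate 1. With library size alone the log2 fold change of Cat was −0.82 (adjusted p = 0.0894).

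The bases upstream of Cat are shown because CCAAT boxes have long been described in catalase promoters. The sequence is from RefSeq (GRCm38.p6, chr2:103485161-103485403, minus strand), reads 5′ to 3′ toward the start of transcription, and has the letters CCAAT, or ATTGG where the motif lies on the other strand, in capitals.
Cat: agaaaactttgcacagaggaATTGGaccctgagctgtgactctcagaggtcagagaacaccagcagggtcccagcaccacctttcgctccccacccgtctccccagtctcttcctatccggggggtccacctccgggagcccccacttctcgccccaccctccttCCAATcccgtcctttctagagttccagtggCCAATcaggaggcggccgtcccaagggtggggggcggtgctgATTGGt
The motif occurred 4 times, the first 230 and the last 13 bases upstream of the RefSeq start. The bases shown end before that start, so the distances do not run from the end of the sequence. Of 32851 RefSeq promoter windows of 250 bases, 33.8% held CCAAT on either strand at least once and 0.840% held it 4 times or more.

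Both glutathione peroxidases are selenoproteins, and their values diverged. Gpx1, the abundant enzyme of cytosol and mitochondria that reduces soluble peroxides (chromosome 9, 108338903 to 108340343, plus strand), was at 96.4 and 108.3 CPM with APAP. In the saline libraries it was at 656, 242 and 809 CPM. The APAP libraries were close to each other and far below every saline library, while the saline libraries spread widely, with WT2 the lowest. The mean fell from 569 ± 293 CPM (n = 3) to 102 ± 8.40 CPM (n = 2), or 18.0% of the saline level, with a log2 fold change of −2.48 (SE 0.53, interval −3.74 to −1.21, adjusted p = 0.0413). The call was lost when 1 library was left out, with an adjusted p of 0.220 without APAP replicate 1, 0.143 without APAP replicate 3, 0.0923 without WT1 and 0.0613 without WT3. It held without WT2 (0.0351), and the log2 fold change was between −2.84 and −2.06 in all 13 alternative analyses.

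Gpx4, which reduces phospholipid hydroperoxides within membranes and is known for protecting cells from ferroptosis (chromosome 10, 80047166 to 80056439, plus strand), was at 54.2 and 77.1 CPM after APAP versus 90.2, 59.9 and 64.9 CPM after saline. The groups overlapped, the 2 APAP libraries lying on either side of WT2 and WT3. The log2 fold change was −0.12 (SE 0.27, interval −0.77 to 0.52, adjusted p = 0.822), and it was 0.27 with library size alone. The Gpx4 count is uncertain because 61.7% of the 50-base words of its transcript also occur in the pseudogene Gpx4-ps2. Within each library, Gpx1 had 1.78 and 1.40 counts per count of Gpx4 with APAP, against 7.28, 4.05 and 12.5 with saline. This ratio does not depend on how the libraries were scaled, and the groups did not overlap. With all genes of at least 10 counts in every library, 90.4% of Gpx1 pairs and 32.3% of Gpx4 pairs did not overlap.

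The peroxiredoxins use a reactive cysteine in place of a metal or selenium. Prdx1, the typical 2-cysteine peroxiredoxin of cytosol and nucleus (chromosome 4, 116685544 to 116700822, plus strand), was at 961 and 1118 CPM after APAP versus 1025, 839 and 737 CPM after saline. The APAP values lay around the highest saline value, and the groups overlapped. The log2 fold change was 0.26 (SE 0.28, interval −0.39 to 0.92, adjusted p = 0.609), positive in all 13 alternative analyses but below 0.05 in none of them. A share of 10.9% of its 50-base words also occur in the pseudogene Gm21399.

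Prdx1 and Srxn1 are known targets of NRF2, a factor that binds the antioxidant response element, and the bases upstream of both are shown because the redox partner Srxn1 rose, as described with the thioredoxin genes. The sequences are from RefSeq (GRCm38.p6), on the plus strand, at chr4:116685349-116685543 for Prdx1 and chr2:152105274-152105515 for Srxn1. Capitals mark matches on either strand to TGACNNNGC, a core form of the antioxidant response element, and to TGANTCA, the AP-1 motif, with which it can overlap.
Prdx1: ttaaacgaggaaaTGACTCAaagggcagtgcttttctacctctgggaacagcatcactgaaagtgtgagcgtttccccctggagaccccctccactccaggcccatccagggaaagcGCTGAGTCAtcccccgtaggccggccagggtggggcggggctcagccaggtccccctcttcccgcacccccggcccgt
Srxn1: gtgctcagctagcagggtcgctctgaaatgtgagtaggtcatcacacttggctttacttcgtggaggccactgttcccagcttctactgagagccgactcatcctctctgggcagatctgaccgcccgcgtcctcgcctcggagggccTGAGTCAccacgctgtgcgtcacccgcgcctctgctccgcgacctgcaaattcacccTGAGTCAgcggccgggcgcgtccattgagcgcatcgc
In Prdx1 the AP-1 letters lay 237 and 131 bases upstream of the RefSeq start. A match to the antioxidant response element lay at 133 bases and overlapped the AP-1 letters at 131 bases. The bases shown for both genes end before the RefSeq start, so the distances do not run from the end of each sequence. Srxn1 held the AP-1 letters at 102 and 45 bases and no match to TGACNNNGC. At 45 bases its letters read TGAGTCAGC, with G where TGACNNNGC has C. Other forms of the antioxidant response element were not searched, so Srxn1 is not shown to lack the element. Among the 32851 promoter windows, 10.2% held TGACNNNGC, 6.75% held TGANTCA and 0.338% held TGANTCA 2 times or more. Of the 10 enzyme genes, 8 had a promoter in the RefSeq table. Sod1 also held TGACNNNGC, 56 bases upstream of its start.

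Prdx3, the peroxiredoxin of the mitochondrial matrix (chromosome 19, 60864051 to 60874556, minus strand), was at 105.3 and 76.2 CPM after APAP versus 120.5, 99.3 and 91.7 CPM after saline. The groups overlapped, and the log2 fold change of −0.19 (SE 0.25, interval −0.78 to 0.39, adjusted p = 0.675) became 0.23 with library size alone. Unlike Sod2 of the same compartment, Prdx3 had an APAP library above 2 of the saline libraries.

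Prdx5, an atypical 2-cysteine enzyme found in mitochondria, peroxisomes and cytosol (chromosome 19, 6906697 to 6910106, minus strand), was at 112.6 CPM in both APAP libraries, versus 168.7, 123.6 and 126.8 CPM after saline. The APAP libraries were the lowest, by a small margin under WT2 and WT3. The log2 fold change was −0.31 (SE 0.23, interval −0.87 to 0.24, adjusted p = 0.464) and 0.10 with library size alone, and Trmt112 overlaps the gene on the other strand. Prdx6, the 1-cysteine enzyme that draws on glutathione and also has phospholipase activity (chromosome 1, 161240112 to 161251219, minus strand), was at 210.3 and 294 CPM after APAP versus 440.5, 313 and 261 CPM after saline. Its groups overlapped, since APAP replicate 3 exceeded WT3, and the log2 fold change was −0.42 (SE 0.31, interval −1.17 to 0.32, adjusted p = 0.457).

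WT1 was the highest saline library for 9 of the 10 genes, all but Gpx1, and it also had the lowest TMM factor, 0.783. Without WT1 the median log2 fold change of the 10 genes was −0.16. The part of this library's scaling in the differences was not tested beyond that value.

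**Figure D2:**
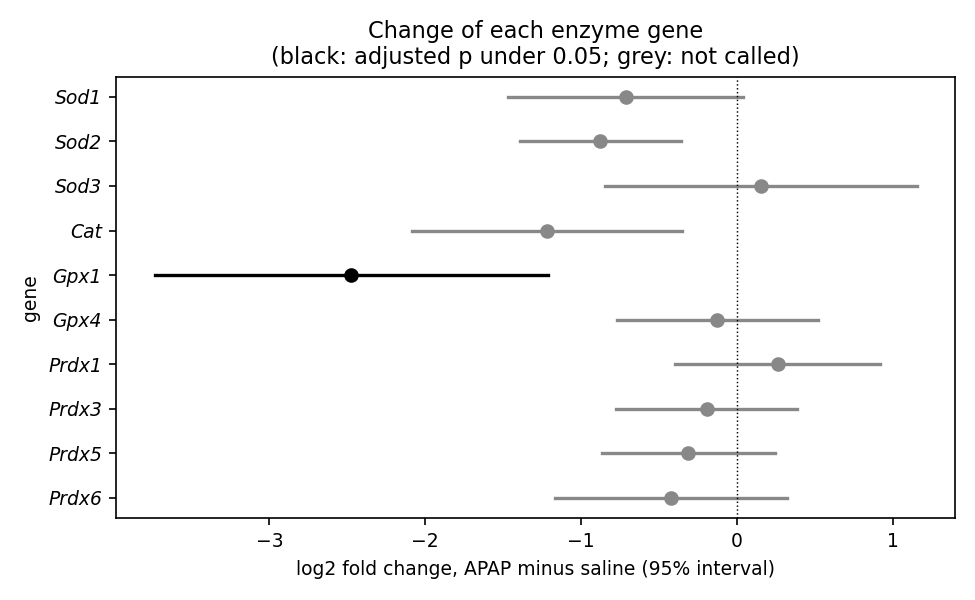
Log2 fold change, APAP minus saline, of each of the 10 enzyme genes from edgeR's quasi-likelihood fit, with bars for the 95% interval and a dotted line at 0. The intervals of Gpx1, Cat and Sod2 lie below 0 (Gpx1 alone has an adjusted p under 0.05), and the signs of Gpx4, Prdx3 and Prdx5 turn with library size alone in place of TMM.

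Levels of different enzymes were compared per kilobase of their longest protein-coding transcript (CPM per kb). In saline, Sod1 (754 to 1285 CPM per kb) and Cat (701 to 1193) were the highest, and their ranges overlapped each other and that of Gpx1 (226 to 755). Prdx1 followed with 321 to 447 CPM per kb, within the range of Gpx1. Prdx6 (109 to 185) and Prdx5 (98.0 to 134) overlapped each other below Prdx1, and Gpx4 (60.2 to 90.6) and Prdx3 (62.0 to 81.5) overlapped below these. Sod2 was at 25.3 to 30.4 and Sod3 at 5.004 to 11.1 CPM per kb, each separate from its neighbours. In the APAP libraries Sod1 was at 528 and 662, Prdx1 at 419 and 487, Cat at 343 and 479, and Gpx1 at 89.9 and 101 CPM per kb, so that by the mean Prdx1 ranked 4 in saline and 2 with APAP, and Gpx1 ranked 3 and 5. These ranks depend on the length used. Per kilobase of all exons together, Prdx1 ranked 3 in saline and 2 with APAP, and Gpx1 ranked 2 and 4. Among the 10 genes the ratio between these lengths is largest for Sod1. Its longest coding transcript has 641 bases and all its exons together 3970, and with the latter Cat ranked 1 and Sod1 ranked 4 in saline.

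Because ratios between genes of the same library do not depend on scaling, all 45 pairs of the 10 genes were read in this way. In 30 pairs the ratio did not overlap between APAP and saline, and in 15 it did, while 45.5% of all pairs of the 11686 genes with at least 10 counts in every library did not overlap. Gpx1 had no overlap in 8 of its 9 pairs, and in 90.4% of its pairs with all these genes. Prdx1 also had none in 8 of 9, against 42.5% with all genes. The corresponding values were 7 of 9 and 78.7% for Cat, and 7 of 9 and 57.6% for Sod1. They were 5 of 9 and 74.8% for Sod2, and 4 of 9 and 16.9% for Sod3. For Gpx4 they were 6 of 9 and 32.3%, and for Prdx3 4 of 9 and 37.0%. Prdx5 had 5 of 9 and 48.0%, and Prdx6 had 6 of 9 and 39.4%. Cat had 0.933 and 1.12 counts per count of Prdx1 with APAP and 3.04, 3.05 and 2.48 with saline. Prdx1 had 2.84 and 2.64 counts per count of Sod1 with APAP and 1.24, 1.47 and 1.53 with saline. In contrast, the ratio of Sod1 to Sod2 overlapped, at 3.64 and 5.13 with APAP and 4.63, 3.61 and 3.26 with saline. The ratio of Cat to Gpx1 overlapped too, at 9.30 and 11.6 against 4.75, 10.6 and 2.26. Pairs share genes, so these counts describe the libraries and are not independent of each other.

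The makeup of the reads on the 10 genes also differed between groups. Cat held 31.0% and 35.0% of them with APAP and 46.8%, 51.3% and 40.1% with saline. Prdx1 held 33.3% and 31.2% with APAP and 15.4%, 16.8% and 16.1% with saline, a narrow range within each group. Gpx1 held 3.34% and 3.02% with APAP and 9.85%, 4.86% and 17.7% with saline. The share of Sod1 was alike in all libraries, from 10.6% to 12.4%. Together the 10 genes took 0.368% and 0.390% of all counts with APAP and 0.521%, 0.488% and 0.428% with saline.

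**Figure D3:**
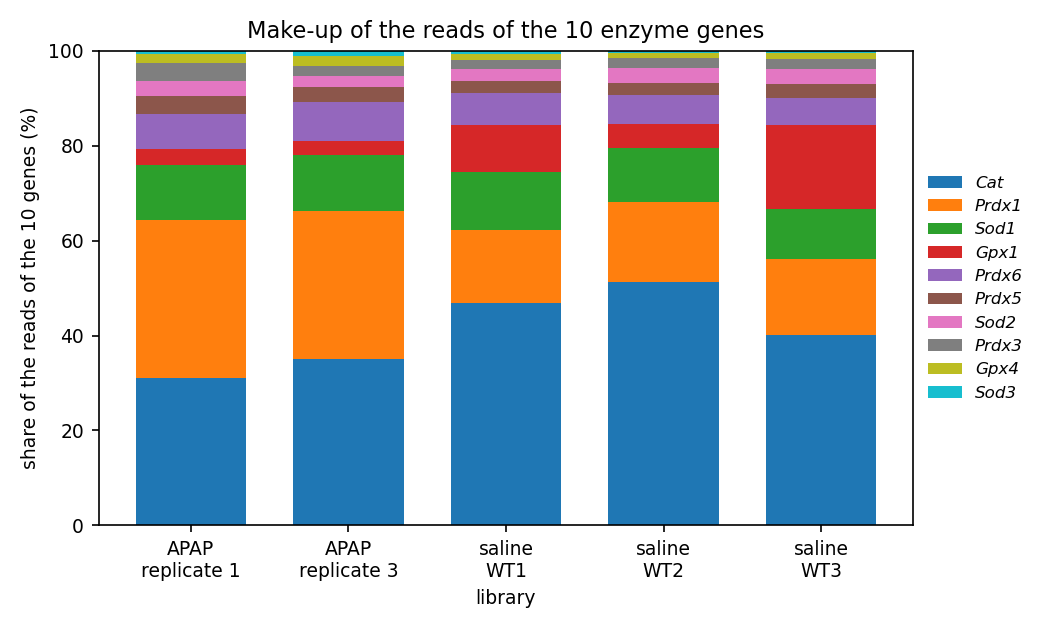
Share of the reads on the 10 enzyme genes that each gene held, in percent, with 1 stacked bar per library (APAP replicates 1 and 3, saline WT1, WT2 and WT3). Cat and Prdx1 held similar shares in the APAP libraries (31.0% and 33.3% in replicate 1), whereas in each saline library Cat held more than any other gene.

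The enzymes depend on donors, cofactors and transport, which were read from 7 lists of 79 genes, of which 71 were tested. Of these 71, 4 rose and 7 fell, and the other 60 did not pass, beside 3.7% higher and 3.53% lower among all genes tested. Their median log2 fold change was −0.03, against 0.03 over all genes. The counts within single lists are small and are given as descriptions beside the same shares. Among the 12 thioredoxin and glutaredoxin genes, all tested, 1 rose and 0 fell (all genes, 3.7% and 3.53%). This was Srxn1, sulfiredoxin, which restores overoxidized peroxiredoxins, at 941 and 598 CPM after APAP versus 44.3, 47.1 and 45.3 CPM after saline. The APAP libraries were far above a tight saline group, with a log2 fold change of 4.08 (SE 0.29, adjusted p = 0.00181). Srxn1 had 0.979 and 0.535 counts per count of Prdx1 with APAP and 0.0432, 0.0562 and 0.0615 with saline.

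Glutathione peroxidases need glutathione reductase and NADPH, and of 11 genes on this list, all tested, 2 rose and 2 fell (all genes, 3.7% and 3.53%). Gsr, glutathione reductase, was at 178 and 156 CPM after APAP versus 73.1, 64.8 and 66.1 CPM after saline (log2 fold change 1.30, SE 0.20, adjusted p = 0.0167). Pgd, a dehydrogenase of the pentose phosphate pathway that yields NADPH in the cytosol, was at 127 and 136 CPM against 35.8, 28.8 and 24.6 CPM (2.15, SE 0.23, adjusted p = 0.00521). Both were thus higher in each APAP library, while 2 other sources of NADPH were lower in each. Me1, cytosolic malic enzyme, was at 72.7 and 50.3 CPM against 187, 144 and 160 CPM (−1.42, SE 0.27, adjusted p = 0.0287), and 26.5% of its 50-base words are shared with the pseudogene Gm7049. Idh2, the mitochondrial NADP-dependent isocitrate dehydrogenase, was at 37.8 and 44.5 CPM against 103, 121 and 108 CPM (−1.43, SE 0.22, adjusted p = 0.0158).

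Of 16 genes of metal and selenium supply, all tested, 0 rose and 2 fell (all genes, 3.7% and 3.53%). Ccs, the chaperone that loads copper into SOD1, was at 44.4 and 50.7 CPM after APAP versus 153, 103 and 96.4 CPM after saline (−1.30, SE 0.28, adjusted p = 0.0404). It had 0.131 and 0.120 counts per count of Sod1 with APAP and 0.185, 0.181 and 0.200 with saline. The ratio did not overlap between groups, nor did 57.6% of Sod1 pairs with all genes of at least 10 counts in every library. Sephs2, which makes the selenium donor for selenoproteins such as GPX1 and GPX4, was at 294 and 339 CPM against 846, 806 and 791 CPM (−1.36, SE 0.25, adjusted p = 0.0278). Per count of Gpx1, Sephs2 overlapped between groups, at 3.05 and 3.13 against 1.29, 3.33 and 0.978.

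Hydrogen peroxide is also made by oxidases, and of 13 tested among 14 such genes, 1 rose and 2 fell (all genes, 3.7% and 3.53%). Both that fell encode peroxisomal enzymes, so their product is formed beside catalase. Pipox, which oxidizes sarcosine and pipecolic acid, was at 77.4 and 92.7 CPM with APAP against 288, 359 and 243 CPM with saline (−1.80, SE 0.28, adjusted p = 0.0162). Uox, urate oxidase, was at 493 and 942 CPM against 2131, 2154 and 2404 CPM (−1.64, SE 0.37, adjusted p = 0.0479), and Dnase2b overlaps it on the other strand. Smox, spermine oxidase of the cytosol and nucleus, was at 12.3 and 11.5 CPM against 4.12, 3.92 and 5.01 CPM (1.45, SE 0.26, adjusted p = 0.0261). Of 6 tested among 7 genes of peroxisomal import, through which catalase enters the organelle, 0 rose and 1 fell (all genes, 3.7% and 3.53%). Pex13, a docking protein of the peroxisomal membrane, was at 42.7 and 40.4 CPM against 75.8, 71.7 and 82.4 CPM (−0.88, SE 0.20, adjusted p = 0.0441), and Pus10 overlaps it on the other strand.

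In the remaining lists none of the tested genes passed. Of the 5 tested among 8 other peroxidases, Prdx4 of the endoplasmic reticulum had the highest mean, with 32.8 and 51.1 CPM against 126, 79.4 and 79.2 CPM (−1.18, SE 0.32, adjusted p = 0.0772). Of the 8 tested among 11 genes of the NADPH oxidase complex, which makes superoxide in phagocytes, Rac1 had the highest mean, with 144 and 157 CPM against 171, 40.3 and 40.3 CPM. Its groups overlapped because WT1 stood above all other libraries (0.85, SE 0.64, adjusted p = 0.463). The 11 genes that passed kept their direction in all 13 alternative analyses, but their calls depended on single libraries and, for 3 genes, on the scaling. Of these 11, 2 were still called without APAP replicate 1, 2 without APAP replicate 3, 5 without WT1, 2 without WT2 and 9 without WT3. With library size alone 8 were still called, and the others were Me1 (log2 fold change −0.99, adjusted p = 0.0669), Ccs (−0.89, 0.0518) and Pex13 (−0.49, 0.197). Srxn1 and Pgd were called in all 13.

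**Figure D4:**
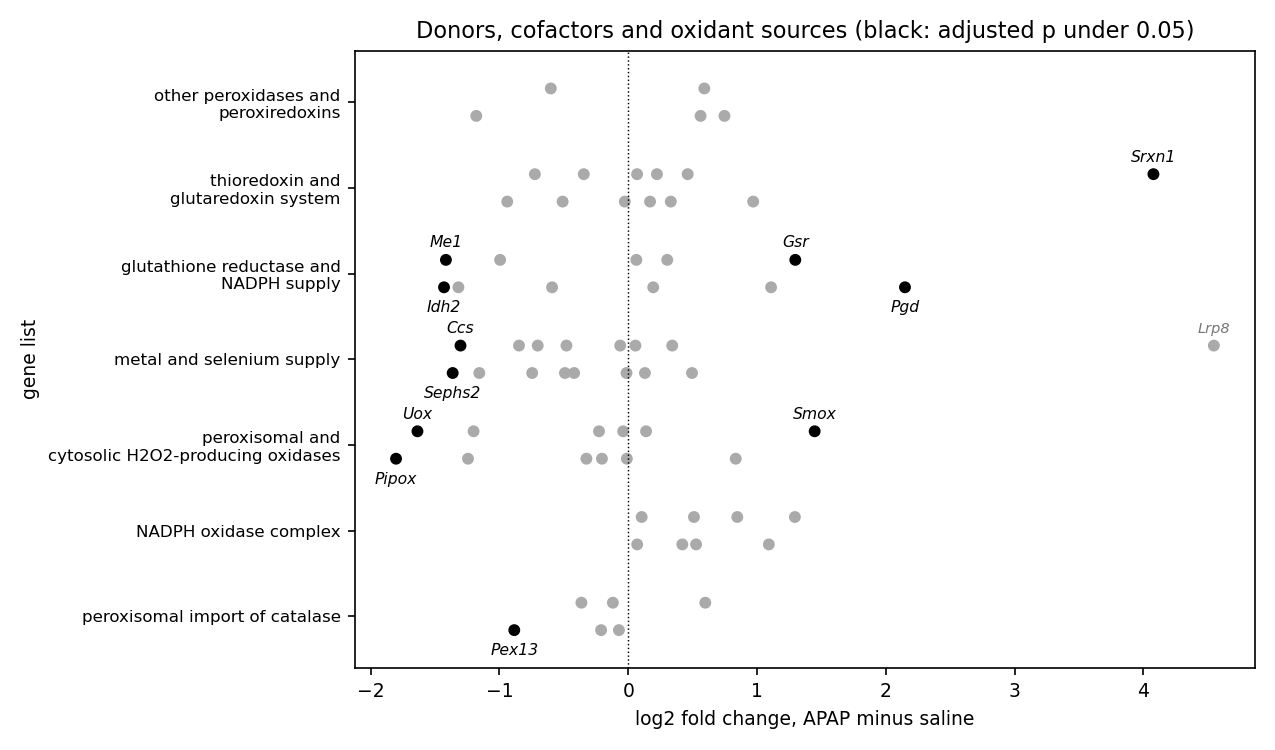
Log2 fold change, APAP minus saline, of the tested genes of 7 lists around the enzymes, with 1 point per gene, black where the adjusted p was under 0.05 and grey otherwise. Hao2, at 0 counts in both APAP libraries, is not drawn. Srxn1 stands far to the right of its list, and Lrp8 (grey) rests on at most 82 counts in any library.

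In a whole-liver sample, fewer cells of a type and less RNA per cell cannot be told apart. Markers of several cell types also differed between the groups. The summed level of 6 hepatocyte markers was 77099 and 122834 CPM with APAP and 122180 to 175217 CPM with saline. These sums overlapped, and 0 of the 6 markers passed the test. Alb, Ttr, Serpina1c and Trf had lower means with APAP, while Apoa1 (148% of saline) and Fgb (170%) had higher ones. The 7 markers of pericentral hepatocytes, the cells in which APAP is mostly activated, were all lower in both APAP libraries, with a sum of 1062 to 2035 CPM against 8142 to 13611 CPM, and 6 of them passed the test. The 7 periportal markers summed to 4211 to 4546 CPM against 7145 to 7591 CPM, and 2 of them passed. Of 9 neutrophil markers all 8 tested rose, from a sum of 4.57 to 8.35 CPM to one of 77.5 to 121 CPM, and Ly6g and Camp were at 0 in every saline library. Monocyte and macrophage markers, of which 3 of 6 passed, summed to 197 to 290 CPM with APAP against 80.4 to 109 CPM. Without Cd14 their sums overlapped, at 84.4 and 145 CPM against 68.7 to 103 CPM. Most of the sum without Cd14 was Lyz2, at 50.2 and 103 CPM against 64.8 to 98.5 CPM. The markers that passed were Cd14, Ccr2 and Chil3 (24.9 and 23.0 CPM against 0.179 to 0.267 CPM). Lyz2, Ly6c2 and Itgam did not pass. Cholangiocyte markers summed to 347 to 356 CPM against 47.1 to 52.3 CPM. Most of this sum was Spp1, at 276 and 313 CPM with APAP and 37.7 to 42.6 CPM with saline. All 5 cholangiocyte markers tested were higher in both APAP libraries, and 2 of them passed. The sums overlapped for Kupffer cells (205 to 385 against 205 to 286 CPM), sinusoidal endothelial cells (108 to 170 against 117 to 211), stellate cells (307 to 368 against 340 to 386), lymphocytes (5.75 to 5.93 against 3.94 to 8.17) and erythrocytes (44.1 to 145 against 60.8 to 77.8). The only marker of these lists to pass was Col1a1 of stellate cells, at 10.2 and 5.13 CPM against 1.43 to 2.79 CPM. Among Kupffer markers Marco was higher in both APAP libraries (56.7 and 123 CPM against 7.51 to 30.9 CPM). Vsig4 was lower in both (22.9 and 32.1 CPM against 34.4 to 46.2 CPM), and the other 4 Kupffer markers overlapped. The part of all these cell types in the values of the enzyme genes was not tested.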

How the data were processed

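Liver RNA of WT mice given APAP or saline was sequenced by SHBIO, as stated in the methods. Reads were aligned with HISAT2 (builds GRCm38 and mm10 in the submitters' processing notes), and raw read counts per gene were deposited, without normalization. Program versions, annotation and strand setting are not given in the sources used here. The 5 deposited FPKM columns were not used. APAP replicate 2 was not analysed here. Libraries of the same group were compared pairwise, and their chi-square over genes was 43.2 to 92.2 times its degrees of freedom, so none was a repeat of another. A count of 3 corresponded to 0.176 to 0.269 CPM, for counting error only.

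The test was run with edgeR 4.0.16 under R 4.3.3 (filterByExpr with minimum count 10 and minimum total 15, TMM, quasi-likelihood test, Benjamini-Hochberg over 13734 genes), which was tested on simulated data. SEs were taken from the fold change and the F statistic, and intervals are 95%. The design, written for 3 libraries per group, was kept with 2 APAP libraries. The alternatives were the exact test and the likelihood ratio test of edgeR, DESeq2 1.42.0, other scalings and filters, the study's thresholds, and each library left out. Named genes were the 10 enzymes and, of each list, every gene with an adjusted p under 0.05 (at most 4), otherwise the gene of highest mean CPM. Neighbouring and sequence-sharing genes were added from GENCODE M21. The members and lists were chosen with earlier results of these data known.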

Additional observations from a re-analysis of the deposited data

How the results depend on the processing

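No paired analysis was possible because the saline columns are not tied to the numbered saline samples. The number of enzyme genes called (1 of 10) was 3 with the likelihood ratio test, the exact test, DESeq2 and the study's thresholds, and between 0 and 1 with a library left out. The number of genes called on the 7 lists (11) was 21 with the likelihood ratio and exact tests, 24 with DESeq2, 17 with no filter beyond 1 count, 27 with the study's thresholds, and 2 to 11 with a library left out. Over all genes the 993 calls became 1835, 1776 and 2093 with these tests, 3228 with the study's thresholds, and 165 to 922 with a library left out. With library size alone the median log2 fold change of all genes moved from 0.03 to 0.42, 77.8% of calls were higher (51.2% with TMM), and the sign turned for Gpx4 (0.27), Prdx3 (0.23) and Prdx5 (0.10). Without 1 library it turned for Gpx4 (0.11 without APAP replicate 1, 0.09 without WT1), Sod3 (−0.30 without APAP replicate 3, −0.03 without WT2, −0.04 without WT3) and Prdx3 (0.0098 without APAP replicate 3), with ranges of −0.41 to 0.11, −0.30 to 0.64 and −0.44 to 0.0098. The cause was not tested. Of the enzyme genes' fold changes under the 13 alternatives, 111 kept their sign and their side of the threshold, 6 newly passed it, 4 no longer did and 9 turned sign. Leaving out an APAP library leaves 1, which is assumed to vary like the saline group. With 2 APAP libraries, an interval as wide as that of Sod3 does not show that a gene was unchanged.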

Other observations

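Nnt, the gene of nicotinamide nucleotide transhydrogenase, was at 19.3 CPM in APAP replicate 1 and at 109.3 CPM in APAP replicate 3. In WT1, WT2 and WT3 it was at 64.7, 58.3 and 61.6 CPM. The APAP libraries thus lay on either side of a tight saline group. Read counts do not show whether a working Nnt enzyme is made in these livers. Hao1, the peroxisomal glycolate oxidase, was at 42.8 and 206.6 CPM with APAP and between 136 and 155 CPM with saline. The aldehyde oxidase gene Aox3 was at 19.9 and 231 CPM with APAP and between 271 and 310.0 CPM with saline. Txnrd1, which encodes the cytosolic thioredoxin reductase that serves Prdx1, was at 311 and 305 CPM after APAP versus 141, 149 and 182 CPM after saline, with an adjusted p of 0.0506 in edgeR's quasi-likelihood test. Selenop, the plasma selenoprotein made by hepatocytes, was at 2444 and 4775 CPM against 9885, 6407 and 7843 CPM (adjusted p = 0.168). These 5 genes were chosen after their values were seen.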
